A study of Homo sapiens with 6 samples.

Results

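The genes described here are 36 genes of glycolysis and of the response to low oxygen, read in 3 wild-type (WT) and 3 *FGFR2* knockout (KO) lines of HaCaT keratinocytes. They were taken by name, from a list chosen with earlier results of these data known. Each deposited row whose Ensembl identifier GENCODE maps to any of the 36 symbols was taken. All 36 had a row among the 21475 genes used, and 33 of them, with means from 0.5 FPKM upwards, were among the 12241 genes tested. FPKM counts fragments relative to transcript length and library depth, so that levels of different genes can be set side by side. The genes fell into 4 classes: 4 transporters of glucose and lactate, 17 glycolytic enzymes, 3 regulators of the flux through glycolysis, and 12 genes of the hypoxia-inducible factor (HIF) pathway and of the hypoxia response, of which *EGLN3*, *CA9* and *BNIP3* had a lower mean and were not tested.

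Glycolysis breaks glucose down to pyruvate in the cytosol, and lactate dehydrogenase can turn that pyruvate into lactate, which leaves the cell through monocarboxylate transporters. HIF is a dimer of an oxygen-regulated alpha subunit and ARNT; in oxygen, prolyl hydroxylases of the EGLN family mark the alpha subunit for destruction, and without oxygen it accumulates and activates many genes, most glycolytic enzyme genes among them. The epidermis has no blood vessels of its own, and keratinocytes are known for a high rate of glycolysis with release of lactate.

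HaCaT cells are human keratinocytes that became immortal spontaneously in culture. All 6 lines were grown in high-glucose DMEM with FBS, and no low-oxygen treatment, ligand or inflammatory stimulus was named for them. For the KO lines, Cas9 ribonucleoprotein with a sgRNA to exon 7 of *FGFR2* was brought in by nucleofection, and cells were sorted singly and expanded, so that each KO line is 1 clone. The sequenced WT lines are described as clonally expanded, while the WT lines in other assays also included the population from which the KO lines were made, and the labels do not tie a line to a replicate number. The spread between lines therefore includes differences between clones. With 1 library per line, the p-values below set the group difference against the spread between libraries. That spread cannot be split into differences between lines and differences of culture or library preparation. RNA came from whole cultures, in which fewer cells expressing a gene and less RNA per cell cannot be told apart. Where 3 values are given for a group, they belong to replicates 1, 2 and 3 in that order.

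Because HIF binds a short DNA core, the 250 bases before the RefSeq start (GRCh38.p14) are shown for 6 members whose levels are described below. *LDHA*, *PGK1* and *ENO2* are shown as enzyme genes that hold the core, and *LDHB* as an enzyme gene that does not. *DDIT4* is shown as the tested member with the largest decrease in the KO lines. *BNIP3* is shown as the member with the most cores and a very low level. Capitals mark the core, ACGTG or GCGTG, read on either strand, so that CACGT and CACGC are marked as well and CACGTG is counted on each strand. Each sequence is written 5′ to 3′ in the direction of transcription. The stretches are chr11:18394313-18394562 (plus strand) for *LDHA*, chrX:78103998-78104247 (plus strand) for *PGK1*, chr12:6914330-6914579 (plus strand) for *ENO2*, chr12:21657843-21658092 (minus strand) for *LDHB*, chr10:72273674-72273923 (plus strand) for *DDIT4* and chr10:131981924-131982173 (minus strand) for *BNIP3*.
LDHA: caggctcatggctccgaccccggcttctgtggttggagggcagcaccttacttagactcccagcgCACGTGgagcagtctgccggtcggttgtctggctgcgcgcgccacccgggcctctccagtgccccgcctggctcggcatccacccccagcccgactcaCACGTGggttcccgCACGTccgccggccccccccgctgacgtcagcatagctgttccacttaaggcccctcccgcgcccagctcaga
PGK1: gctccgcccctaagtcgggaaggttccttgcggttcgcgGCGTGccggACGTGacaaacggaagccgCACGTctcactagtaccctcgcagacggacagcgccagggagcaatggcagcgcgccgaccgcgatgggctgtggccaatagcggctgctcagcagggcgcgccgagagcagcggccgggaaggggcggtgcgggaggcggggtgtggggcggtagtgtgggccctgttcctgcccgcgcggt
ENO2: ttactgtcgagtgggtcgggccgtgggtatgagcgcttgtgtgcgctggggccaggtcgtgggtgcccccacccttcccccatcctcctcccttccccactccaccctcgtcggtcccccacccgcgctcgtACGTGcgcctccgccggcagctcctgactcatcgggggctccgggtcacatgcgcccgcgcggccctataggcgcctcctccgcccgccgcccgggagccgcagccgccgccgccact
LDHB: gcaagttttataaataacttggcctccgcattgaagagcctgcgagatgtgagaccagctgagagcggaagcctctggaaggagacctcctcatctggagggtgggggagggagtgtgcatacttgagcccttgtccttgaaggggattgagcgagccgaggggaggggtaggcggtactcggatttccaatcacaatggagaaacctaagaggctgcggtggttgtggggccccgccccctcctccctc
DDIT4: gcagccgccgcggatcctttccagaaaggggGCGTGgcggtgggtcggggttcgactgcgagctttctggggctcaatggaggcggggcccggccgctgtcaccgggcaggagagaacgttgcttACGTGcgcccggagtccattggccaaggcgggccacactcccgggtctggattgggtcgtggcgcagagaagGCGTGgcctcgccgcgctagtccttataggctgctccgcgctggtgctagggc
BNIP3: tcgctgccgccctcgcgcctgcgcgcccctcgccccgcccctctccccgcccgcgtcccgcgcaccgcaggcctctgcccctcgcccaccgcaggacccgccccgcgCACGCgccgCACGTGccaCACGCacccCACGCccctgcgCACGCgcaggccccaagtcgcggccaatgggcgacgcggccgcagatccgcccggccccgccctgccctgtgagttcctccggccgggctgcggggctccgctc

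With CACGTG counted on each strand, the core occurred 5 times before *LDHA*, 3 times before *PGK1*, once before *ENO2*, 3 times before *DDIT4* and 6 times before *BNIP3*. The letters were not in the stretch before *LDHB*. RefSeq starts were matched for 31 members, and *SLC2A3*, *SLC16A1*, *VEGFA*, *BNIP3L* and *NDRG1* were not matched. Of the 31, 20 held at least 1 core (64.5%), against 43.2% of all 35116 promoter stretches of the same length and 57.7% of the 9809 that belong to tested genes. Among the classes, 8 of 9 hypoxia response genes, 10 of 17 enzymes, 2 of 3 flux regulators and 0 of 2 transporters held it. The narrower form ACGTG was in 14 of 31 members (45.2%), 18.5% of all stretches and 23.4% of those of tested genes. These counts describe letters in the reference genome, and binding of HIF was not measured.

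*FGFR2* itself was at 21.6, 39.8 and 15.02 FPKM in the WT lines and at 3.04, 2.26 and 4.31 FPKM in the KO lines, with every KO line below every WT line. Its log2 fold change was -2.73 (standard error 0.36, limma adjusted p = 0.261). Depth was estimated from the steps between low values at 67500000 to 80900000 fragments in the WT and 71300000 to 87600000 in the KO libraries, at which 1 fragment on 1 kilobase is worth 0.0114 to 0.0148 FPKM. The keratinocyte markers *KRT5* and *KRT14* were at 6086 to 14768 and 2793 to 8652 FPKM over the 6 libraries, and all 7 keratinocyte markers were above 1 FPKM in every library. Summed levels were 0.708 to 2.44 FPKM for 4 melanocyte markers, almost all from *PMEL*, 6.91 to 33.2 FPKM for 6 fibroblast markers, mostly from *COL1A1* and *DCN*, and 10.3 to 44.9 FPKM for 6 blood and endothelial markers, mostly from *CD68* and *VWF*. In each of these lists 3 markers, *MLANA*, *TYR* and *DCT*, *COL1A2*, *COL3A1* and *PDGFRB*, and *PTPRC*, *CD3E* and *PECAM1*, stayed under 1 FPKM throughout. WT replicate 2 had the highest sum in all 3 lists, with *DCN* at 15.5 FPKM against at most 1.66 FPKM elsewhere, although *LUM* was highest in KO replicate 1 and *VWF* in WT replicate 3. The part of such RNA in the values below was not tested.

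The question put to the 36 genes was whether their RNA levels differed between FGFR2-deficient and WT keratinocytes. Most glycolytic enzymes had higher levels in the KO lines: 15 of 17 had a higher mean, with a median log2 fold change of 0.52. The 9 tested hypoxia response genes did not share a direction, with 4 higher, 5 lower and a median of -0.084. Beside these values, 60.6% of all tested genes had a higher mean in the KO lines and the median of all tested genes was 0.088. A log2 fold change here is the difference of the group means of log2(FPKM + 0.5), KO minus WT, which understates the change of genes with low levels, and a higher or lower mean refers to these log2 values.

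No member passed the adjusted threshold of limma (an adjusted p up to 0.05 together with a log2 fold change of 0.5 or more in size). Neither did any of the 12241 genes (0%), of which 2065 (16.9%) had an unadjusted p up to 0.05. The paper used another test, DESeq2, and reported genes past a false discovery rate of 0.05, with *FGFR2* strongly lower. When the unadjusted p was used with the same minimum fold, 9 of the 33 tested members were called, beside 12.5% of all tested genes. Of these, 8 were higher, where 10.2% of all genes were, and 1 was lower, where 2.33% were. The 8 were the enzyme genes *GPI*, *PFKL*, *PFKM*, *TPI1*, *ENO2*, *LDHA* and *LDHB* and the kinase gene *PDK1*, and the lower gene was *DDIT4*. In 9 of the 33 tested members the 3 KO values and the 3 WT values did not overlap, a share near the 24.1% of all tested genes. The KO lines were above every WT line for *PFKM*, *PFKP*, *ENO2*, *PKM*, *LDHA*, *LDHB* and *HIF1A*, as for 18.3% of all genes, and below them for *HK1* and *DDIT4*, as for 5.77%. For each of these 9 genes an exact two-sided permutation test gave p = 0.1, which is the lowest value possible with 3 libraries a group. Groups without overlap always give this value, so it adds nothing to the absence of overlap.

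**Figure D1:**
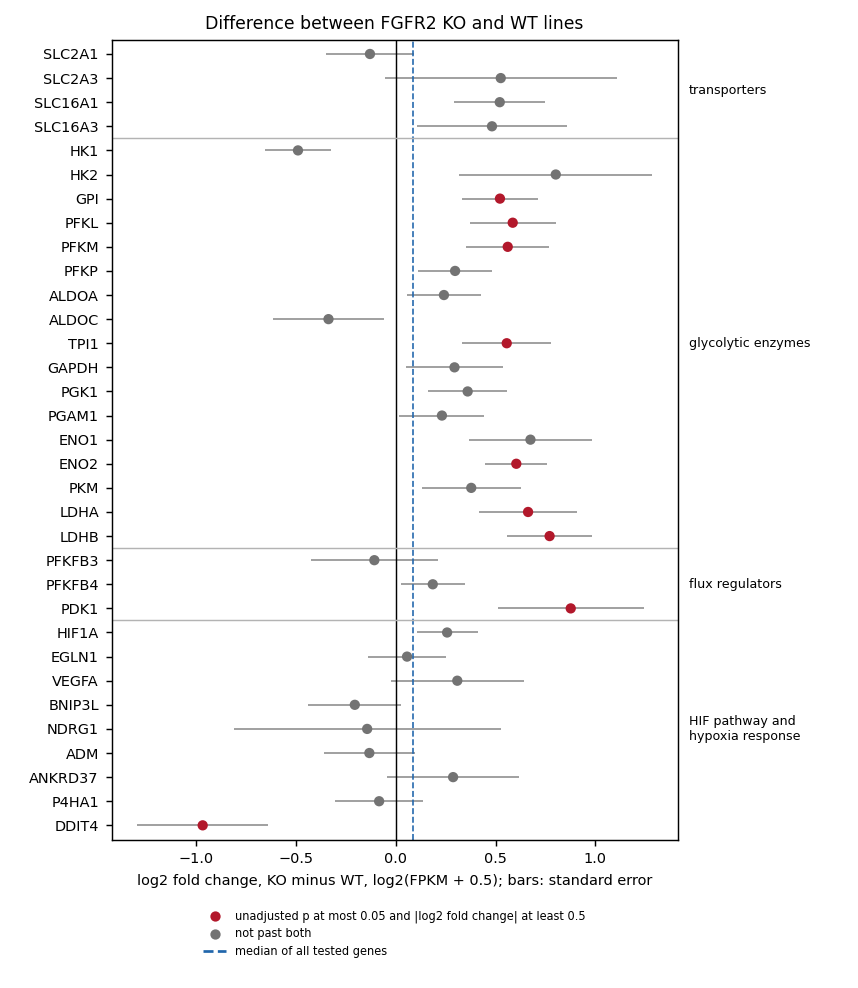
Log2 fold change of the 33 tested members between FGFR2 KO and WT lines (x axis, log2(FPKM + 0.5), KO minus WT), with the standard error as bars; genes are grouped by class from top to bottom. Red points mark the 9 members with an unadjusted p up to 0.05 and a change of 0.5 or more in size, and the dashed line marks the median of all tested genes, 0.088; 15 of 17 enzymes lie right of 0, *HK1* and *ALDOC* left of it.

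The number of members past the unadjusted threshold depended on the scaling and on single lines. Given with the share of all tested genes past the same threshold, it was 4 with median-of-ratios scaling (2 higher, 2 lower, beside 10.7% of all genes), 6 after quantile normalization (10.7%), 15 with library weights (17.7%) and 3 with chromosome medians removed (10.05%). With 1 line left out it was 2 without KO replicate 3 (5.14%), 3 without WT replicate 1 (7.83%), 5 without KO replicate 1 (12.8%), 6 without WT replicate 2 (9.33%), 12 without WT replicate 3 (15.97%) and 13 without KO replicate 2 (18.4%). Without the filter on low values the number was 6 (7.19%), and *TPI1*, *LDHA* and *PDK1* were no longer past the threshold. With median-of-ratios scaling, and also with chromosome medians removed, 2 enzymes stayed higher past it and *PDK1* did not. The count of 15 of 17 enzymes with a higher KO mean was the same under every alternative run. The enzyme median stayed between 0.36 (without KO replicate 3) and 0.63 (without KO replicate 2). The median of the hypoxia response genes changed sign, from -0.20 without KO replicate 1 (2 of 9 higher) to 0.094 without WT replicate 2 (6 of 9 higher) and 0.16 with library weights (7 of 9 higher).

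Glucose enters keratinocytes mainly through SLC2A1 (GLUT1), and *SLC2A1* (ENSG00000117394, on chromosome 1 from 42925353 to 42958893 in GRCh38) was the most abundant of the 4 transporter genes. Its level was 229.5, 229 and 270.04 FPKM in the WT lines and 308, 183 and 192 FPKM in the KO lines. KO replicate 1 was the highest of the 6 libraries and the other two KO lines were the lowest, so the groups overlapped, with means of 243 ± 23.6 FPKM in the WT lines and 228 ± 69.5 FPKM in KO (SD, n = 3 each). This was a log2 fold change of -0.13 (standard error 0.22, unadjusted p = 0.571, limma adjusted p = 0.778), and it was 0.12 with library weights and 0.007 without KO replicate 2. *SLC2A3*, the gene of the high-affinity glucose transporter GLUT3, ranged from 0.0626 to 1.86 FPKM, with its highest levels in KO replicate 1 and WT replicate 3. The lactate transporter gene *SLC16A1* (MCT1) had 18.9, 15.5 and 25.6 FPKM in the WT lines and 27.3, 23.5 and 35.4 FPKM in the KO lines. Its KO mean of 28.7 ± 6.08 FPKM lay above the WT mean of 20 ± 5.16 FPKM (SD, n = 3 each), but KO replicate 2 was below WT replicate 3 (log2 fold change 0.52, standard error 0.23, unadjusted p = 0.0531, limma adjusted p = 0.301). *SLC16A3* (MCT4), which exports lactate from highly glycolytic cells, was lower in level at 3.91 to 12.9 FPKM, with WT replicate 3 lowest and KO replicate 3 highest.

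The upper part of glycolysis spends ATP to prime and split the sugar. Hexokinase, which phosphorylates glucose, had a lower KO mean for *HK1* and a higher one for *HK2*. *HK1* (ENSG00000156515, on chromosome 10 from 69269984 to 69401884) was at 183, 153 and 161 FPKM in the WT lines and at 101, 141 and 113 FPKM in the KO lines. Every KO line was below every WT line, with means of 166 ± 15.96 and 119 ± 20.6 FPKM (SD, n = 3 each), and the log2 fold change was -0.49 (standard error 0.17, unadjusted p = 0.0188, limma adjusted p = 0.261), just short of the minimum fold. It was past the unadjusted threshold with median-of-ratios scaling (-0.59), scaling to nuclear genes (-0.57), quantile normalization (-0.61) and library weights (-0.69), and without WT replicate 2 (-0.55), WT replicate 3 (-0.51) or KO replicate 2 (-0.625). With chromosome medians removed it was -0.28 and not past it. *HK2*, the hexokinase gene that insulin and hypoxia are known to induce, was far less abundant, at 4.01, 2.47 and 7.65 FPKM in the WT lines and 12.3, 3.88 and 9.85 FPKM in KO lines. KO replicates 1 and 3 were the highest, while KO replicate 2 was below WT replicate 1 (log2 fold change 0.80, standard error 0.48, unadjusted p = 0.138).

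*GPI* (ENSG00000105220, on chromosome 19 from 34359480 to 34402413) encodes the isomerase that turns glucose phosphate into fructose phosphate. It was at 172, 143 and 195 FPKM in the WT lines and at 267, 194 and 276 FPKM in the KO lines. KO replicates 1 and 3 lay above all WT lines and KO replicate 2 lay just below WT replicate 3. The means were 170 ± 25.95 and 245 ± 45.04 FPKM (SD, n = 3 each), a log2 fold change of 0.52 (standard error 0.19, unadjusted p = 0.028, limma adjusted p = 0.266).

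Phosphofructokinase commits the sugar to glycolysis, and its 3 genes, named for liver, muscle and platelets, all had higher means in the KO lines. *PFKM* (ENSG00000152556, on chromosome 12 from 48105139 to 48146404) had 31.4, 41.6 and 36.03 FPKM in the WT lines and 50.1, 43.1 and 70.9 FPKM in the KO lines, without overlap. The lowest KO line, replicate 2, was close to the highest WT line, replicate 2. Its log2 fold change was 0.56 (standard error 0.21, unadjusted p = 0.0289, limma adjusted p = 0.268). *PFKL* (ENSG00000141959, on chromosome 21 from 44300051 to 44327376) had 33.8, 33.2 and 53.2 FPKM in the WT lines and 61.8, 49.7 and 66.5 FPKM in the KO lines, where WT replicate 3 was above KO replicate 2. For *PFKL* the log2 fold change was 0.59 (standard error 0.22, unadjusted p = 0.028, limma adjusted p = 0.266). The 121 tested genes of chromosome 21, where *PFKL* lies, had medians of -0.046, -0.20 and 0.27 in the WT lines and 0.31, 0.29 and 0.32 in the KO lines, relative to all genes of each library, and with chromosome medians removed the change of *PFKL* was 0.072 (unadjusted p = 0.661 from limma). The most abundant gene of the 3, *PFKP* (ENSG00000067057, on chromosome 10 from 3066333 to 3137718), had 69.7, 74.6 and 66.8 FPKM in the WT lines and 75.1, 76.1 and 113 FPKM in the KO lines. The groups did not overlap, but KO replicates 1 and 2 lay within 2 FPKM of the highest WT line, and KO replicate 3 alone was far above. Its log2 fold change of 0.30 (standard error 0.18, unadjusted p = 0.147, limma adjusted p = 0.43) was 0.10 without KO replicate 3 and 0.51 with chromosome medians removed.

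Aldolase splits the primed sugar into a pair of triose phosphates, which TPI1 interconverts. *ALDOA*, the main aldolase gene, was at 1029 to 1103 FPKM in the WT lines and 1029.6 to 1396 FPKM in the KO lines, with KO replicate 2 inside the WT range (log2 fold change 0.24, standard error 0.19). *ALDOC*, the aldolase gene best known from brain, was at 13.5 to 20.9 and 8.67 to 17.9 FPKM, with a lower KO mean and overlapping groups (log2 fold change -0.34, standard error 0.28). *TPI1* (ENSG00000111669, on chromosome 12 from 6867119 to 6870948) was at 533, 554 and 673 FPKM in the WT lines and 919, 648 and 1061 FPKM in the KO lines. KO replicates 1 and 3 were the highest, and KO replicate 2 was just below WT replicate 3. The log2 fold change of *TPI1* was 0.56 (standard error 0.22, unadjusted p = 0.0386, limma adjusted p = 0.281).

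**Figure D2:**
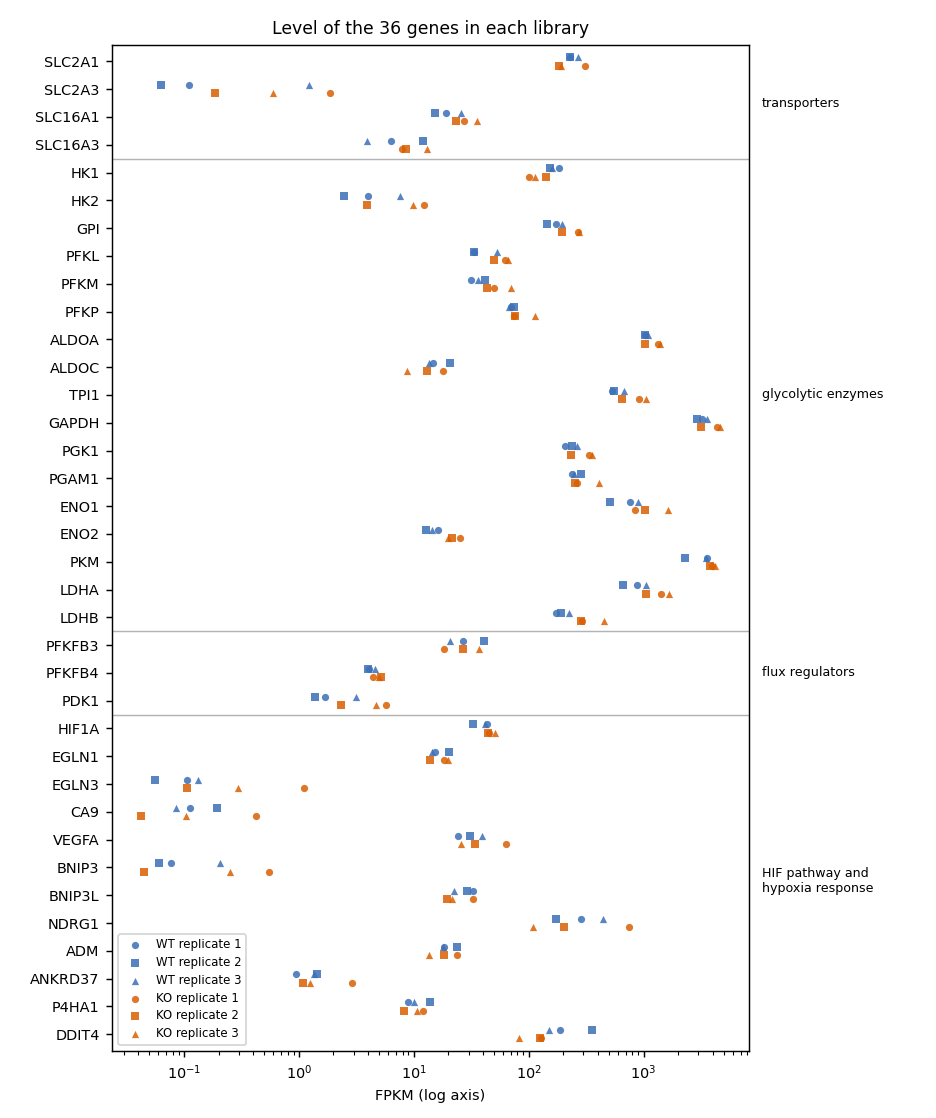
FPKM of the 36 members in each of the 6 libraries on a log10 axis (x axis), with WT libraries in blue and KO libraries in orange and the marker shape giving the replicate number. The most abundant members, *GAPDH* and *PKM*, lie at 2309.9 FPKM or more in every library, and *EGLN3*, *CA9* and *BNIP3* lie near or below 1 FPKM.

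The lower part of glycolysis yields ATP and pyruvate, and it holds the most abundant members, *GAPDH* and *PKM*. *GAPDH* (ENSG00000111640, on chromosome 12 from 6534512 to 6538374), which oxidizes the triose phosphate and is often used as a reference gene, ranked 18th of 21475 genes by mean level. It had 3256, 2947 and 3583 FPKM in the WT lines and 4348, 3158 and 4619.7 FPKM in the KO lines. KO replicate 2 was inside the WT range and KO replicates 1 and 3 above it, with means of 3262 ± 318 and 4042 ± 778 FPKM (SD, n = 3 each). KO and WT differed by a log2 fold change of 0.29 (standard error 0.24, unadjusted p = 0.26, limma adjusted p = 0.543), and 0.64 after quantile normalization. *PGK1*, which makes ATP in the next step and lies on the X chromosome, was at 206, 241 and 264 FPKM in the WT lines and 336, 233 and 355 FPKM in KO lines, with the same order of the KO lines as *GAPDH* (log2 fold change 0.36, standard error 0.20). For *PGAM1*, the mutase, only KO replicate 3 was above the WT range, at 413 FPKM against 239 to 286 FPKM (log2 fold change 0.23, standard error 0.21).

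Enolase makes phosphoenolpyruvate. *ENO2* (ENSG00000111674, on chromosome 12 from 6913745 to 6923698), the enolase gene first described in neurons, had 16.1, 12.8 and 14.4 FPKM in the WT lines and 25.3, 21.4 and 19.97 FPKM in the KO lines. All 3 KO lines were above all WT lines, with means of 14.4 ± 1.66 and 22.2 ± 2.77 FPKM (SD, n = 3 each) and a gap larger than the spread within either group. With an unadjusted p of 0.00526 (log2 fold change 0.60, standard error 0.16, limma adjusted p = 0.261) it had the smallest p of the members. *ENO1*, the main enolase gene, had a log2 fold change of 0.68 with a larger standard error of 0.31. Its values were 765, 507 and 890.4 FPKM in the WT lines and 839, 1034 and 1622 FPKM in the KO lines, where KO replicate 3 was highest and KO replicate 1 lay below WT replicate 3.

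Pyruvate kinase completes glycolysis. *PKM* (ENSG00000067225, on chromosome 15 from 72199029 to 72231819) ranked 19th of 21475 genes, with 3593, 2309.9 and 3478 FPKM in the WT lines and 3964, 3806 and 4203 FPKM in the KO lines. The KO lines were all above the WT lines but close to 2 of them, WT replicate 2 being far lower than the rest. Its log2 fold change was 0.38 (standard error 0.25, unadjusted p = 0.17, limma adjusted p = 0.454), 0.17 without WT replicate 2, 0.16 with library weights and 0.63 after quantile normalization. The deposited values are per gene, so that the M1 and M2 isoforms of *PKM* cannot be told apart.

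Lactate dehydrogenase is a tetramer of LDHA and LDHB subunits, LDHA favouring the making of lactate and LDHB its use, and both genes were higher in all 3 KO lines than in any WT line. *LDHA* (ENSG00000134333, on chromosome 11 from 18394560 to 18408425) has an upstream stretch with 5 cores, CACGTG being counted on each strand. It was at 885, 668 and 1043 FPKM in the WT lines and 1406, 1056 and 1652 FPKM in the KO lines. KO replicate 2 was only just above WT replicate 3. The means were 866 ± 188 and 1371 ± 300 FPKM (SD, n = 3 each), a log2 fold change of 0.66 (standard error 0.25, unadjusted p = 0.0292, limma adjusted p = 0.268). *LDHB* (ENSG00000111716, on chromosome 12 from 21635342 to 21757857), whose stretch holds 0 cores, was at 174, 193 and 224 FPKM in the WT lines and 294, 283 and 454 FPKM in the KO lines. Here the gap was wider, with the lowest KO line at 283 and the highest WT line at 224 FPKM. The log2 fold change of *LDHB* was 0.77 (standard error 0.22, unadjusted p = 0.00782, limma adjusted p = 0.261), the largest among the members past the unadjusted threshold except *PDK1* and *DDIT4*, and it stayed between 0.55 and 0.89 when each line was left out in turn.

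**Figure D3:**
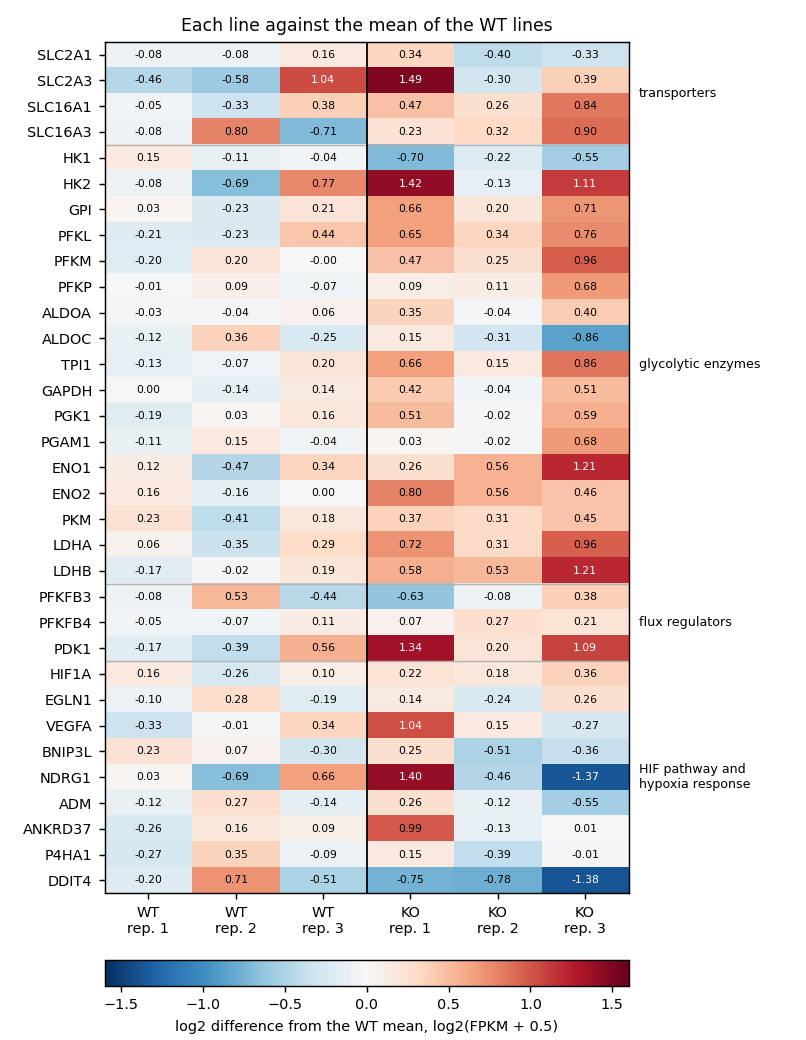
Log2 difference of each library from the mean of the WT libraries, log2(FPKM + 0.5), for the 33 tested members (rows, by class) and the 6 libraries (columns, WT left and KO right of the line); red is higher and blue lower, and each cell prints its value. Enzyme rows are mostly red in KO replicates 1 and 3 and paler in KO replicate 2, and *NDRG1* runs from 1.40 in KO replicate 1 to -1.37 in KO replicate 3.

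The KO lines were not equally high. As the median over the 17 enzymes of the log2 difference from the WT mean, the libraries stood at -0.028, -0.11 and 0.16 in the WT lines and at 0.47, 0.15 and 0.68 in the KO lines. KO replicate 2 therefore lay just below WT replicate 3. The median of all tested genes on the same scale was -0.045, 0.033 and 0.015 in the WT and 0.10, 0.053 and 0.145 in the KO libraries.

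Among the flux regulators, *PDK1*, the gene of a kinase that inhibits pyruvate dehydrogenase, was higher, and *PFKFB3* and *PFKFB4* differed less. *PDK1* (ENSG00000152256, on chromosome 2 from 172555373 to 172608669) was at 1.68, 1.38 and 3.14 FPKM in the WT lines and 5.74, 2.33 and 4.72 FPKM in the KO lines. KO replicates 1 and 3 were highest and KO replicate 2 was below WT replicate 3, with means of 2.06 ± 0.94 and 4.26 ± 1.75 FPKM (SD, n = 3 each). The log2 fold change was 0.88 (standard error 0.37, unadjusted p = 0.0455, limma adjusted p = 0.29). *PFKFB3* (ENSG00000170525, on chromosome 10 from 6144934 to 6254644), the most abundant of this class, makes the sugar bisphosphate that activates phosphofructokinase. Its values of 26.8, 41.2 and 20.8 FPKM in the WT lines and 18.2, 26.96 and 37.3 FPKM in KO lines overlapped throughout (log2 fold change -0.11, standard error 0.32, unadjusted p = 0.743, limma adjusted p = 0.88), and the sign turned with chromosome medians removed (0.11). *PFKFB4*, a related enzyme gene, had the narrowest range of all members by the ratio of its highest to its lowest level, at 3.997 to 5.197 FPKM over the 6 libraries.

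Summed over the 17 enzymes, glycolytic RNA made up 1.985, 1.53 and 2.03% of the FPKM of nuclear genes in the WT lines and 2.26, 2.08 and 2.53% in the KO lines. The KO lines were all above the WT lines, with means of 1.85 ± 0.27% and 2.29 ± 0.23% (SD, n = 3 each). The exact two-sided permutation p was 0.1, the lowest possible, which groups without overlap always give. *GAPDH* and *PKM* are the largest terms of this sum. As a percent of all FPKM the groups were almost in contact, at 1.578% in WT replicate 3 and 1.587% in KO replicate 2, and the plain sums overlapped, with WT replicate 3 at 12060 and KO replicate 2 at 12040 FPKM (exact permutation p = 0.2). The 13 mitochondrially encoded genes, left out of the nuclear base, took 27.6, 21.5 and 22.2% of all FPKM in the WT lines and 15.8, 23.7 and 11.9% in the KO lines. KO replicates 1 and 3, with the highest enzyme medians, had the lowest mitochondrial shares, and with the libraries scaled to nuclear genes the enzyme median was 0.44 with 15 of 17 higher. The 12 hypoxia response genes summed to 0.109, 0.113 and 0.125% in the WT lines, and KO replicate 1 with 0.170% lay above and KO replicates 2 and 3 with 0.0811 and 0.0515% below them. *NDRG1* alone took 69.3% of this sum in KO replicate 1 and 25.7 to 59.9% in the other 5 libraries, and without it the sum was 0.0503 to 0.084% in the WT and 0.0347 to 0.052% in the KO lines, with KO replicate 1 above WT replicate 3.

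**Figure D4:**
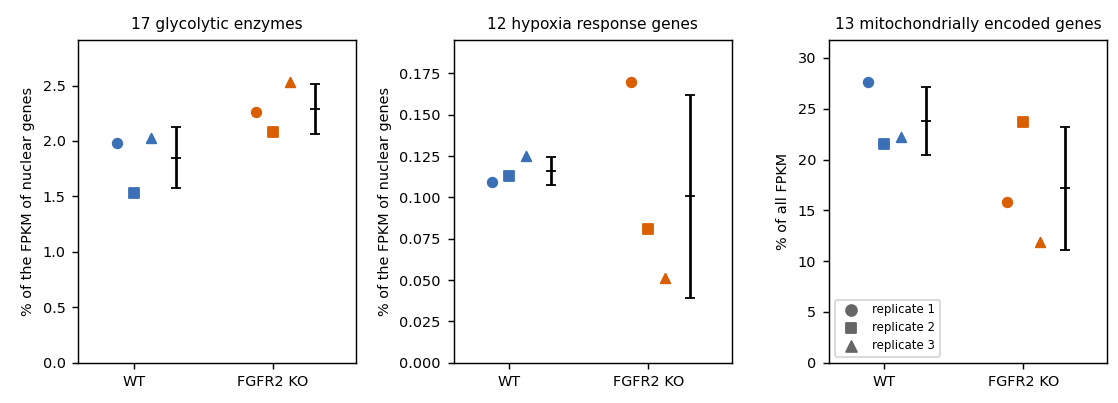
Summed FPKM of the 17 glycolytic enzymes (left) and of the 12 hypoxia response genes (middle) as a percent of the FPKM of nuclear genes, and of the 13 mitochondrially encoded genes as a percent of all FPKM (right), in each library; bars show the mean and SD of 3 libraries. The enzyme sum is 1.53 to 2.03% in WT and 2.08 to 2.53% in KO lines, and the hypoxia response sum runs from 0.0515 to 0.170% within the KO lines.

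The makeup of the isozyme families overlapped between the groups. The share of *HK2* in the summed hexokinase FPKM was 2.14, 1.595 and 4.54% in the WT lines and 10.8, 2.67 and 8.04% in the KO lines, so that KO replicate 2 was below WT replicate 3 (exact two-sided permutation test, p = 0.2, adjusted p = 0.675 over 9 shares). *HK1* thus remained the main hexokinase gene in every line. *LDHB* took 16.5 to 22.4% of lactate dehydrogenase FPKM in the WT and 17.3 to 21.5% in the KO lines (exact permutation p = 0.9). For *PFKP* the share of phosphofructokinase FPKM was 42.8 to 51.7% in the WT and 40.2 to 45.2% in the KO lines (exact permutation p = 0.3). The groups overlapped in each of the 9 shares computed.

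**Figure D5:**
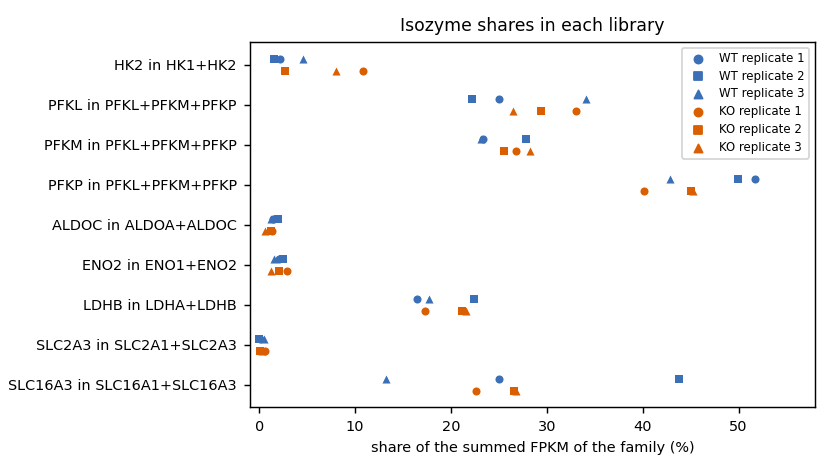
Share of an isozyme in the summed FPKM of its family (x axis, percent) in each library, with WT libraries in blue, KO libraries in orange and the marker shape giving the replicate number. WT and KO libraries overlap in each of the 9 shares; *HK2* reaches 10.8 and 8.04% of hexokinase FPKM in KO replicates 1 and 3.

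No regulator of the HIF pathway among the members was past the unadjusted threshold. *HIF1A* (ENSG00000100644, on chromosome 14 from 61695513 to 61748259), the gene of the oxygen-regulated subunit, had 43.6, 32.6 and 41.97 FPKM in the WT lines and 45.7, 44.5 and 50.5 FPKM in the KO lines. The KO lines were all above the WT lines, although KO replicates 1 and 2 were within 3 FPKM of WT replicate 1. The difference was 0.26 on the log2 scale (standard error 0.15, unadjusted p = 0.133, limma adjusted p = 0.412), and 0.13 without WT replicate 2 and 0.094 with library weights. HIF-1α is regulated mainly as a protein, which these data do not measure. *EGLN1*, the main prolyl hydroxylase gene, was at 13.9 to 20.3 FPKM with overlapping groups and a log2 fold change of 0.056 (standard error 0.20) whose sign turned under several scalings. *EGLN3*, a hydroxylase gene that HIF itself induces, was at 0.106, 0.0562 and 0.133 FPKM in the WT lines and 1.11, 0.107 and 0.296 FPKM in KO lines and was not tested, KO replicate 1 alone exceeding 1 FPKM.

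Of the tested hypoxia response genes, *DDIT4* (ENSG00000168209, on chromosome 10 from 72273919 to 72276036), which encodes the mTORC1 inhibitor REDD1, had the log2 fold change of largest size. Its level was 187, 353 and 151 FPKM in the WT lines and 128, 125 and 82.5 FPKM in the KO lines. All 3 KO lines were below all WT lines, and WT replicate 2 was far above the rest. The means were 230.1 ± 108 and 112 ± 25.4 FPKM (SD, n = 3 each), a log2 fold change of -0.97 (standard error 0.33, unadjusted p = 0.0196, limma adjusted p = 0.261). Without WT replicate 2 the change was -0.61, with chromosome medians removed -0.75, and without KO replicate 3 it was -0.76 and no longer past the unadjusted threshold. *DDIT4* lies on chromosome 10, as do *HK1*, *PFKP*, *PGAM1*, *PFKFB3*, *P4HA1* and *BNIP3*. The 463 tested genes of this chromosome had medians of 0.023, 0.14 and -0.16 in the WT lines and -0.43, -0.16 and -0.19 in the KO lines, relative to all genes of each library. The part of this shift in the values of *DDIT4* beyond the numbers given was not tested.

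*NDRG1* (ENSG00000104419, on chromosome 8 from 133237175 to 133302022), a gene induced by hypoxia and by differentiation, was the most abundant of the class and had the widest range of the members above 2 FPKM by the ratio of its highest to its lowest level. It was at 286, 175 and 446 FPKM in the WT lines and 744, 204 and 109 FPKM in the KO lines. KO lines held both the highest and the lowest value. The mean FPKM was higher in the KO lines (352 against 302), and the log2 fold change was -0.14 with a standard error of 0.67 (unadjusted p = 0.836, limma adjusted p = 0.927). The 7 differentiation markers *KRT1*, *KRT10*, *IVL*, *DSG1*, *DSC1*, *FLG* and *SPRR1B* also varied between the lines. As log2 differences from the WT mean, their medians were 0.16, -0.80 and 1.12 in the WT lines and 0.82, -0.58 and -2.72 in the KO lines. Not every marker followed these medians. *IVL* was at 0.32, 0.26 and -0.58 in the WT lines and at -1.75, -0.029 and -1.72 in the KO lines. *FLG* was below the WT mean in KO replicate 1 (-0.15). The KO mean of the log2 values was lower for all 7, with a median of -0.66, while *DSC1* had mean levels of 1.88 FPKM in the WT and 1.90 FPKM in the KO lines, and *IVL* alone was past the unadjusted threshold (-1.17). Without KO replicate 3, 4 of the 7 were higher and the median was 0.12. Their summed part in the values of *NDRG1* was not tested.

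The angiogenic factor gene *VEGFA* was at 24.5, 30.7 and 39.4 FPKM in the WT lines and 64.003, 34.5 and 25.6 FPKM in KO lines, again with KO replicate 1 highest (log2 fold change 0.31, standard error 0.33). *ANKRD37*, a small ankyrin repeat gene known as a HIF target, also had its highest level in KO replicate 1, at 2.93 FPKM, with the other 5 libraries between 0.948 and 1.44 FPKM. *ADM*, the gene of the vasodilator peptide adrenomedullin, ranged over 13.5 to 24.02 FPKM, *P4HA1*, a collagen prolyl hydroxylase gene, over 8.15 to 13.98 FPKM, and *BNIP3L*, a mitophagy receptor gene, over 19.4 to 33.1 FPKM. In all 5 genes the groups overlapped and the unadjusted p of limma was between 0.385 and 0.713.

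The hypoxia markers *CA9* and *BNIP3* were near 0, while other genes induced by hypoxia, such as *NDRG1*, *VEGFA* and *ADM*, were at the higher levels given above. *CA9*, the gene of a membrane carbonic anhydrase that is strongly induced by HIF, was at 0.112, 0.194 and 0.08496 FPKM in the WT lines and 0.425, 0.0425 and 0.105 FPKM in KO lines. *BNIP3*, a mitophagy receptor gene with 6 cores in its upstream stretch, was at 0.0772, 0.0609 and 0.206 FPKM in the WT lines and 0.546, 0.0448 and 0.251 FPKM in KO lines. In both genes and in *EGLN3* the highest library was KO replicate 1. GENCODE annotates 44 pseudogenes of *BNIP3* and 65 of *GAPDH*, and 157 of 17 members in all, none of which had a row in the tables, so that the levels of these members are uncertain by the fragments shared with such copies.

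Beyond the 36 genes, 108 other genes of the same pathways were listed, of which 86 were tested. Of these, 51 had a higher KO mean and the median was 0.047, near the 60.6% and 0.088 of all genes, and 6 were higher and 6 lower past the unadjusted threshold, beside 10.2 and 2.33% of all tested genes. Among other genes of glycolysis and gluconeogenesis (12 of 24 tested), *G6PC3*, a glucose phosphatase gene, was higher, at 23.4, 19.6 and 27.02 FPKM in the WT lines and 30.8, 33.5 and 39.5 FPKM in KO lines without overlap (log2 fold change 0.56, standard error 0.17). *LDHD*, the gene of a mitochondrial D-lactate dehydrogenase, was lower, at 2.04, 5.02 and 2.06 FPKM in the WT lines and 0.986, 1.34 and 0.221 FPKM in KO lines (-1.40, standard error 0.44). Their limma adjusted p was 0.261 each, and the median of the 12 was 0.097.

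For the routes that branch from glycolysis, the counts stand beside the 12.5% of all tested genes past the unadjusted threshold. Of 8 tested genes of the pentose phosphate pathway, which draws off glucose phosphate for NADPH and ribose, 0 were past the threshold and the median was 0.017. For pyruvate entry into mitochondria, the pyruvate carrier and pyruvate dehydrogenase with its regulators, 0 of 10 were past it and the median was 0.055. Glycogen genes had a median of 0.25 over 9 tested genes, and 2 were higher: *PGM1*, which links glucose phosphates and glycogen, with 10.5, 16.1 and 7.54 FPKM in the WT lines and 15.2, 16.6 and 22.2 FPKM in KO lines (0.69, standard error 0.28), and *PYGB*, a glycogen phosphorylase gene, with 102, 81.4 and 119 and 168, 116 and 191 FPKM (0.63, standard error 0.23). In each of these 2 genes a WT line lay above the lowest KO line.

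Of 13 other tested components of the HIF pathway, *ARNT*, the partner of HIF1A, was lower in the KO lines. It was at 59.5, 62.4 and 55.2 FPKM in the WT lines and 38.4, 54.9 and 32.9 FPKM in the KO lines, KO replicate 2 being within 1 FPKM of the lowest WT line (-0.52, standard error 0.20, unadjusted p = 0.0326, limma adjusted p = 0.274). *EPAS1*, which encodes HIF-2α, was at 77.5 to 87.4 FPKM in the WT lines and 50.6 to 83.6 FPKM in KO lines, with overlap, and *VHL*, the ubiquitin ligase subunit that recognizes hydroxylated HIF, was at 9.98 to 11.8 FPKM throughout.

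Other known HIF targets went both ways, with 3 of 34 tested genes higher and 4 lower past the unadjusted threshold, beside 10.2 and 2.33% of all tested genes, and a median of 0.11. *MXI1*, an antagonist of MYC, had the smallest unadjusted p of all listed genes (unadjusted p = 0.000407, limma adjusted p = 0.261). It was at 57.03, 68.004 and 42.95 FPKM in the WT lines and 25.6, 25.5 and 19.4 FPKM in the KO lines, without overlap, with a log2 fold change of -1.22 ± 0.20 (standard error), or -1.01 with chromosome medians removed. The circadian repressor gene *BHLHE41* (-0.93, standard error 0.38), the heme oxygenase gene *HMOX1* (-0.88, 0.36) and the atypical cyclin gene *CCNG2* (-0.81, 0.30) were also lower, each with overlapping groups. *MIF*, a cytokine gene, was higher without overlap, at 246, 190.1 and 311 FPKM in the WT lines and 461, 337 and 518 FPKM in KO lines (0.82, standard error 0.24). *JMJD6*, which encodes an oxygenase, was higher by 0.54 (standard error 0.16), and *STC2*, a secreted stanniocalcin gene, by 1.74 (standard error 0.62), with 1.67, 0.863 and 4.85 FPKM in the WT lines and 15.8, 3.52 and 8.402 FPKM in KO lines. The limma adjusted p of these genes was between 0.261 and 0.287.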

How the data were processed

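RNA from 3 WT and 3 *FGFR2* KO HaCaT lines (1 poly(A)-selected, stranded, paired-end library each) was analysed. The authors trimmed reads with fastp 0.20.0 and quantified them with kallisto 0.46.1 (versions from the submitters' processing notes; builds hg38 and GRCh38.p13). The values the authors deposited are FPKM per gene. How FPKM was calculated is not given in the sources used here. Of 21493 rows, 18 Y copies of pseudoautosomal genes were left out. Symbols, positions and pseudogenes came from GENCODE release 44.

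Genes whose mean over the 6 libraries reached 0.5 FPKM were tested with limma 3.58.1 (R 4.3.3) on log2(FPKM + 0.5), KO minus WT, with a mean-variance trend and Benjamini-Hochberg adjustment over all 12241 genes; thresholds were an adjusted p of 0.05 and an absolute log2 fold change of 0.5. The test was run on simulated data beforehand. Depth was estimated from steps between low values: 45.4 to 73.1% of 443 to 504 such values per library were whole fragments within 0.02 (4% by chance), so that whole reads could not be recovered and no count test was run. The depth limits the precision of genes near 0, and intervals for counts could not be given.

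The members and lists were chosen with earlier results of these data known. All 36 members are described. Given in full are members past the unadjusted thresholds, members whose groups do not overlap, and the most abundant member of each class. Of the wider lists, genes past the unadjusted thresholds are named. *EPAS1* and *VHL* were named after their values were seen. Isozyme shares, class sums and the removal of chromosome medians were added after seeing the data. Alternatives were other pseudocounts, filters and scalings, no trend, a replicate block, library weights and leaving out each library.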

Additional observations from a re-analysis of the deposited data

How the results depend on the processing

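Pseudocounts of 0.1 and 1, a minimum mean of 2 FPKM and empirical Bayes without trend left the counts and medians of the members and wider lists close to the reported values. Calls at the adjusted threshold stayed at 0 except with library weights, which gave 1396 genes (11.4%) and 10 of 33 members, in a fit where WT replicate 1 had a weight of 10.26 and the other libraries 0.358 to 1.495. These were *GPI*, *PFKL*, *PFKM*, *TPI1*, *PGK1*, *ENO2*, *LDHA*, *LDHB* and *PDK1*, higher, and *HK1*, lower (limma adjusted p = 0.0313 to 0.0499). With the replicate block 12 members were past the unadjusted threshold (11 higher, 1 lower) and 1762 genes in all. Deviations of same-numbered libraries correlated at -0.21, 0.22 and 0.049, and those of differently numbered libraries at -0.37 to 0.29. With 3 lines a group, these values cannot decide whether the numbers pair the lines. The number of members past the unadjusted threshold was 4 with median-of-ratios scaling, 15 with library weights and 3 with chromosome medians removed, and 2 to 13 with 1 library left out. Over all genes, leaving out 1 library gave 630 to 2256 genes at the unadjusted threshold, and the split of higher and lower calls was 817 and 489 with median-of-ratios scaling and 803 and 502 after quantile normalization.

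The median of other genes of glycolysis and gluconeogenesis was 0.024 without a filter, 0.005 with median-of-ratios scaling, 0.02 with nuclear scaling, -0.002 after quantile normalization, 0.22 with library weights, 0.02 with chromosome medians removed, and 0.009 to 0.16 with 1 library left out. For other known HIF targets it was 0.021 without a filter, 0.013 after quantile normalization, 0.29 with library weights, and 0.004 to 0.17 with 1 library left out. For other HIF components it was -0.041 with TPM scaling, -0.17 with median-of-ratios, -0.16 with nuclear scaling, -0.19 after quantile normalization, and -0.11 to 0.021 with 1 library left out. Quantile normalization gave -0.058 for pyruvate entry and -0.11 for the pentose phosphate pathway, and library weights 0.41 for glycogen genes.

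Signs turned for members with small changes. *EGLN1* was -0.037 with median-of-ratios, -0.022 with nuclear scaling, -0.065 after quantile normalization and -0.006 with chromosome medians removed. Library weights gave 0.12 for *SLC2A1*, 0.48 for *NDRG1*, 0.16 for *ADM* and 0.23 for *P4HA1*. With chromosome medians removed, *PFKFB3* was 0.11 and *P4HA1* 0.13. With 1 library left out the ranges were -0.37 to 0.007 for *SLC2A1*, -0.36 to 0.15 for *PFKFB3*, -0.92 to 0.47 for *NDRG1*, -0.048 to 0.20 for *EGLN1*, -0.056 to 0.595 for *VEGFA*, -0.33 to 0.073 for *ADM*, -0.062 to 0.50 for *ANKRD37* and -0.22 to 0.094 for *P4HA1*. The causes were not tested. With 3 lines a group and no recovered counts, differences of the size of these members were not past the adjusted threshold except with library weights.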
